A study of Mus musculus with 7 samples.

Results

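The AP-1 transcription factor family and its stress-induced relative Atf3 were followed in satellite cells, the stem cells of skeletal muscle, taken from mice after death and from living old mice. The members were Fos, Fosb, Fosl1, Fosl2, Jun, Junb, Jund and Atf3, taken where a probe set of the array was annotated to that gene alone. All 8 of the 8 had 1 such probe set each, out of 13287 named genes, and all 8 passed the filter on mean signal that left 9944 genes for testing. Every group carried the transgene Tg:Pax7-nGFP (TgPax7nGFP in the array labels), in which nuclear GFP follows the Pax7 gene, and FACS used this GFP to isolate the cells. There were 3 arrays of cells isolated 4 days post mortem (D4PM), 2 of cells isolated 2 days post mortem (D2PM) and 2 of quiescent cells from living mice labelled 24 to 26 months (old). The post-mortem mice were 8 to 12 weeks of age. For the living mice the design text has 24 to 26 weeks, and the series title speaks of young adults. The paper describes setting its post-mortem cells against young quiescent cells. The array labels use the word adult but give the age in months, and the methods call animals of this age old. The living animals were taken as old on the labels and the methods, although the sources conflict and their age is not certain. Age and death therefore cannot be told apart in any comparison with them. Nothing in the sources used here ties each array to its own animal, and p-values therefore measure the spread between arrays, which may be technical.

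AP-1 is a dimer of basic leucine zipper (bZIP) proteins. Fos proteins do not pair with themselves and need a Jun protein, Jun proteins can also pair with one another, and Atf3 can pair with itself or with Jun proteins. The dimers bind the TPA response element (TRE) or the related cyclic AMP response element (CRE). Fos, Fosb, Jun, Junb and Atf3 are immediate early genes, transcribed within minutes of a stimulus through MAP kinases, serum response factor (SRF) and CREB, and their mRNAs are short-lived. Fosl1 is a delayed early gene whose expression depends on sustained ERK signalling and on AP-1 itself. In satellite cells, AP-1 genes are known to be induced when muscle is dissociated enzymatically and when the cells leave quiescence.

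The promoters of Fos, Jun and Atf3 are shown because these members were higher on both post-mortem days than in old cells. The windows run from 250 bases before to 50 after the annotated start of the gene, from RefSeq on assembly GRCm38.p6, and 7 of the 8 members had one (Fosl1 had none). Both strands were searched for the CRE half-site TGACG, the TRE TGANTCA, the longer CRE-like palindrome TGANNTCA and the CArG box bound by SRF. A CRE-like match with CG in its middle also holds the half-site. Capitals mark matches to the half-site, the TRE or the CRE-like palindrome.
Fos, chr12:85473640-85473939, plus strand: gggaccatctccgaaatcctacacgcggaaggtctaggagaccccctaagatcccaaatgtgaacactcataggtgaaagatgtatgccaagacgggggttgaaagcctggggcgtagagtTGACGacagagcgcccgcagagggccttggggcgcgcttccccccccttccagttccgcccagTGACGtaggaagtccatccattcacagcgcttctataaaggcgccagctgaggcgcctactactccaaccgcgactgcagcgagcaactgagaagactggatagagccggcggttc
Jun, chr4:95052173-95052472, minus strand: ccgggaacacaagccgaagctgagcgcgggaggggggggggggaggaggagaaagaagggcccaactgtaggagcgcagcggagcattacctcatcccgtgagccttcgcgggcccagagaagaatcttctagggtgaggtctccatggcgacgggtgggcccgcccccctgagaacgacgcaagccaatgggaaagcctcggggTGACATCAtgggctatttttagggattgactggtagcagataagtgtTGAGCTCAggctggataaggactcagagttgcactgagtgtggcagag
Atf3, chr1:191183284-191183583, minus strand: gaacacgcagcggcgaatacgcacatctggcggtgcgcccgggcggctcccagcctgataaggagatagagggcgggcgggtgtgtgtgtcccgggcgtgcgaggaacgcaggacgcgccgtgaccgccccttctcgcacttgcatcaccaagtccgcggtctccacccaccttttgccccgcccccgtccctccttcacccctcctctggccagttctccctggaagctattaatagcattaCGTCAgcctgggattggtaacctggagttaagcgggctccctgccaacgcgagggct
The Fos window held the half-site at positions -129 and -66 from the start, and the Atf3 window held it on the other strand at -7. In the Jun window the CRE-like palindrome matched at -45 (TGACATCA) and at 2 (TGAGCTCA). Of the 7 windows, 4 held the half-site (Fos, Fosb, Junb and Atf3), as did 20.8% of the 32851 RefSeq windows of this length. The CRE-like palindrome was found in 2 (Jun and Jund), against 14.1% of all windows. The TRE was found in 0 of the 7 (7.81% of all windows), as was the CArG box (1.63% of all windows). These matches describe letters in the windows and not sites of binding. Bases beyond the windows were not searched, so a gene without a match here may have one further away.

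Across the family, Atf3, Jun and Fos were higher post mortem on both days, Fosl1 was lower on both days, and Fosb, Junb and Jund were higher at D4PM. Fosl2 did not pass the test in any comparison. Between D4PM and old cells 6 of the 8 members were higher and 1 was lower, when 27.9% of the 9944 genes passed, 12.4% higher and 15.5% lower (limma, Benjamini-Hochberg adjusted p under 0.05 over all genes tested). Between D2PM and old cells 3 were higher and 1 was lower, against 19.4% of all genes, 10.3% higher and 9.11% lower. Every D4PM array lay above both old arrays in 6 members and below them in 1, as in 26.6% and 27.9% of all genes. For D2PM these numbers were 5 and 2, against 31.6% and 30.6% of all genes. The median difference over the 8 members was 0.72 on the log2 scale at D4PM and 0.32 at D2PM, both relative to old cells, while the median over all genes lay between -0.03 and 0.0022 in the 4 comparisons. The comparisons of D4PM and of D2PM with old cells share the 2 old arrays and are therefore not independent of each other. Without old replicate 2, the members that passed numbered 4 at D4PM and 3 at D2PM, while the genes called numbered 911 and 346.

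**Figure D1:**
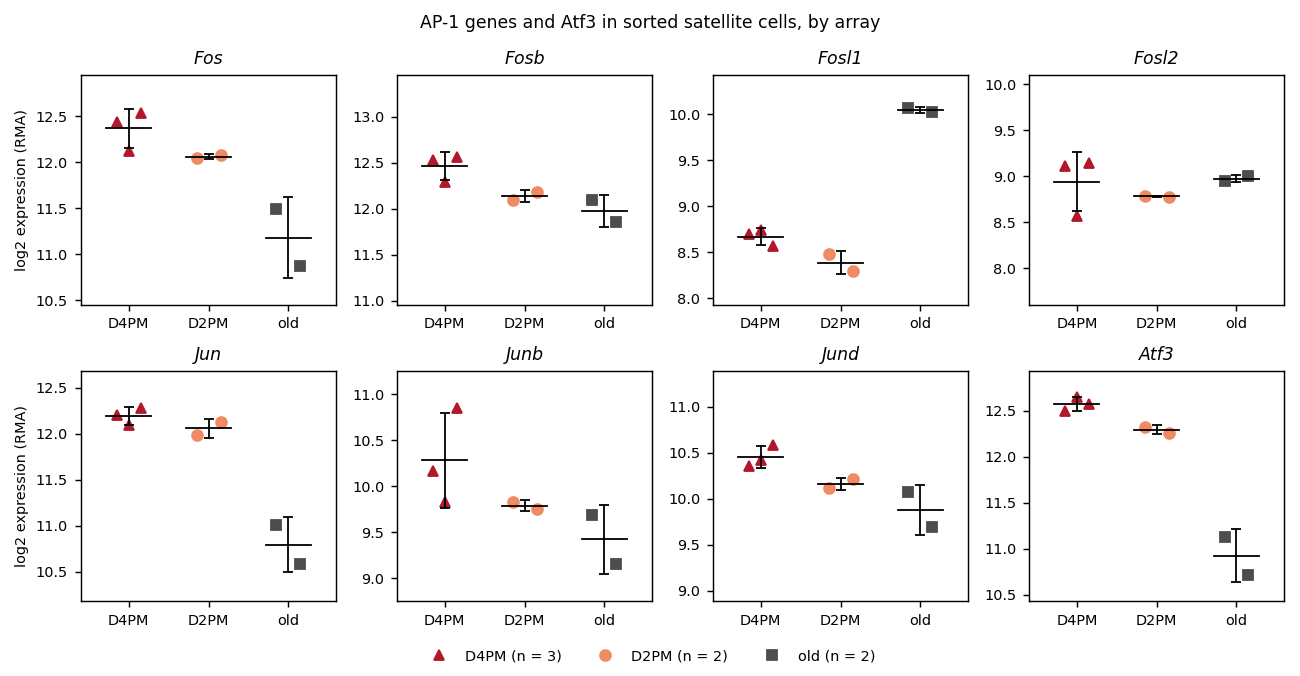
Log2 expression (RMA) of the 8 members, with 1 point per array (triangles, D4PM, n = 3; circles, D2PM, n = 2; squares, old, n = 2) and the group mean ± SD in black; each panel spans the same log2 range. All post-mortem arrays lie above both old arrays for Atf3, Jun, Fos, Junb and Jund, and below them for Fosl1.

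Atf3 encodes an ATF/CREB-family factor that many stresses induce, and it had the largest rise of the family. The log2 levels were 12.50, 12.65 and 12.58 at D4PM, 12.33 and 12.26 at D2PM, and 11.13 and 10.72 in old cells. The groups did not overlap: every D4PM array lay above both D2PM arrays, and these lay above both old arrays. D4PM exceeded old cells by 1.65 (standard error 0.14, limma adjusted p = 2.89e-05), a 3.14-fold difference, and 1.04% of all genes tested had a larger absolute change. At D2PM the difference from old cells was 1.37 (standard error 0.16, limma adjusted p = 3.50e-04), or 2.59-fold.

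Jun encodes the partner that Fos proteins depend on and the substrate from which the JNK kinases take their name. Jun stood at log2 12.21, 12.09 and 12.28 at D4PM, at 11.99 and 12.13 at D2PM, and at 11.01 and 10.58 in old cells. The D4PM and D2PM arrays overlapped and both lay above the old arrays. The difference from old cells was 1.40 at D4PM (standard error 0.15, limma adjusted p = 1.12e-04) and 1.26 at D2PM (standard error 0.16, limma adjusted p = 7.46e-04), or 2.64-fold and 2.40-fold. Of its paralogues, Junb restrains Jun in many cell types and Jund is the most constantly expressed Jun gene. Junb levels were 10.16, 9.83 and 10.85 at D4PM, 9.83 and 9.75 at D2PM, and 9.69 and 9.16 in old cells. The third D4PM array stood above the others, and the second D4PM array had the same value as the first D2PM array. Junb was higher at D4PM by 0.86 (standard error 0.25, limma adjusted p = 0.0259), while its difference at D2PM was 0.36 (95% interval -0.24 to 0.97, limma adjusted p = 0.389). The Jund probe set gave 10.35, 10.42 and 10.59 at D4PM, 10.12 and 10.21 at D2PM, and 10.07 and 9.69 in old cells, with no overlap between any groups. Jund was higher at D4PM by 0.58 (standard error 0.15, limma adjusted p = 0.0127), and its difference at D2PM was 0.29 (95% interval -0.06 to 0.64, limma adjusted p = 0.238). The calls of these paralogues at D4PM rested on few arrays. Junb lost its call without old replicate 1, old replicate 2, D4PM replicate 3 or either D2PM array (limma adjusted p = 0.0541, 0.312, 0.0576 and 0.0736 for both D2PM arrays), with differences of 0.57 to 1.12. Jund did not pass without old replicate 2, where its difference was 0.39 (limma adjusted p = 0.149).

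Fos, the founding immediate early gene of the family, stood at log2 12.44, 12.12 and 12.53 at D4PM, at 12.04 and 12.08 at D2PM, and at 11.49 and 10.87 in old cells. Each D4PM array lay above both D2PM arrays, and the old arrays lay lowest and 0.62 apart. Fos was higher than in old cells by 1.19 at D4PM (standard error 0.18, limma adjusted p = 9.96e-04) and by 0.88 at D2PM (standard error 0.20, limma adjusted p = 0.0125), or 2.27-fold and 1.84-fold. The call at D2PM was lost without old replicate 2, where the difference was 0.57, and without D2PM replicate 1 or 2 (limma adjusted p = 0.138, 0.117 and 0.104). Fosb, whose product like Fos carries an activation domain, had levels of 12.54, 12.29 and 12.57 at D4PM, 12.10 and 12.18 at D2PM, and 12.10 and 11.86 in old cells. The D4PM arrays lay above the rest, and the D2PM arrays overlapped the old arrays. Fosb was higher at D4PM by 0.49 (standard error 0.14, limma adjusted p = 0.0224), while at D2PM the difference was 0.16 (95% interval -0.17 to 0.49, limma adjusted p = 0.486). Its call at D4PM was lost without old replicate 2, D4PM replicate 1 or D4PM replicate 3 (limma adjusted p = 0.191, 0.0586 and 0.0675).

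Fosl1 encodes Fra-1, a Fos protein without the activation domain of Fos, and its change was opposite to that of the members that were higher. Its log2 level was 8.69, 8.75 and 8.57 at D4PM and 8.48 and 8.30 at D2PM, against 10.06 and 10.02 in old cells. The post-mortem arrays lay below both old arrays by more than 1 log2 unit. Relative to old cells, Fosl1 fell by 1.37 at D4PM (standard error 0.13, limma adjusted p = 3.92e-05) and by 1.66 at D2PM (standard error 0.14, limma adjusted p = 4.95e-05), that is to 0.386 and 0.318 of the old level. Over all genes tested, 0.704% had a larger absolute change at D2PM. Fosl2 encodes Fra-2, another Fos protein of the Fra type. Its levels were 9.11, 8.57 and 9.14 at D4PM, 8.78 and 8.78 at D2PM, and 8.95 and 8.996 in old cells. The D4PM arrays fell on both sides of the old arrays, and the D2PM arrays lay below the old arrays. The difference was -0.03 at D4PM (95% interval -0.40 to 0.34, limma adjusted p = 0.902) and -0.19 at D2PM (95% interval -0.60 to 0.21, limma adjusted p = 0.496).

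**Figure D2:**
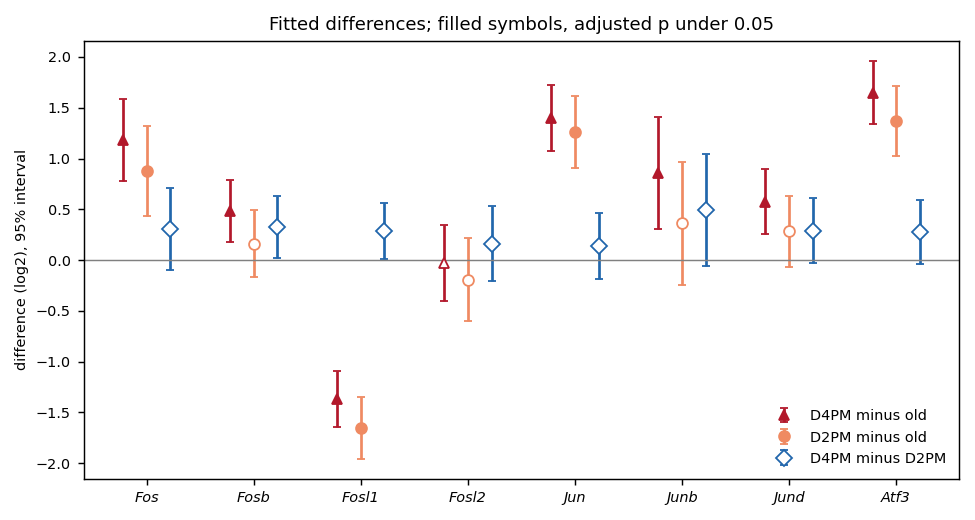
Fitted log2 differences of the 8 members with 95% intervals, for D4PM minus old (triangles), D2PM minus old (circles) and D4PM minus D2PM (diamonds); filled symbols have an adjusted p under 0.05 (limma). Atf3 is highest at 1.65, Fosl1 lies at -1.37 and -1.66, and none of the differences between the post-mortem days is filled.

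Between the days, all 8 members had a fitted difference above 0 (D4PM minus D2PM), from 0.14 for Jun to 0.49 for Junb, with a median of 0.29, when 43.4% of all genes did. None passed the test over all genes, where 0.191% of genes were called (0.161% higher and 0.0302% lower), and 2 had an unadjusted p under 0.05, as did 7.76% of all genes. These were Fosb at 0.32 (95% interval 0.02 to 0.63, limma adjusted p = 0.610) and Fosl1 at 0.28 (95% interval 0.0067 to 0.56, limma adjusted p = 0.625). For 5 members (Fos, Fosb, Fosl1, Jund and Atf3) every D4PM array lay above every D2PM array, as in 9.69% of all genes. For Fosl1 this placed D4PM between D2PM and old cells in level. With the group means of D4PM and D2PM averaged at equal weight, 4 members were higher than in old cells (Atf3, Jun, Fos and Jund at 1.51, 1.33, 1.03 and 0.43) and Fosl1 was lower at -1.51, against 29.0% of all genes, 14.4% higher and 14.7% lower. All 5 post-mortem arrays lay above both old arrays in 5 members and below them in 1, as in 22.8% and 23.2% of all genes. Jund had the weakest of these calls (limma adjusted p = 0.0320), and lost it without old replicate 2, D4PM replicate 3 or either D2PM array (limma adjusted p = 0.322, 0.0556, 0.0756 and 0.0979), down to a difference of 0.24. Junb at 0.61 and Fosb at 0.32 did not pass (limma adjusted p = 0.0696 and 0.0784), although both passed without D4PM replicate 2 (limma adjusted p = 0.0284 and 0.0443).

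The old arrays differed from each other in these genes. Old replicate 1 was above old replicate 2 in 7 of the 8 members, by 0.04 (Fosl1) to 0.62 (Fos), and Fosl2 differed by -0.05, while the median absolute difference between these arrays over all genes was 0.16. Markers of other cell types were also lower on old replicate 2, although the cells were sorted on GFP. In bulk RNA, more cells of a type and more RNA per cell cannot be told apart. All 13 endothelial markers listed were tested, and their mean log2 level was 6.81 to 7.41 at D4PM, 6.83 to 6.88 at D2PM, and 6.47 and 5.84 on old replicates 1 and 2. Of these, 10 were higher at D4PM and 5 at D2PM than in old cells, with Cdh5, the brightest, at 8.77, 8.55 and 6.89 in D4PM, D2PM and old cells. The myofibre list (10 of 12 tested, Acta1 the brightest) had a mean level of 8.51 to 8.85 at D4PM, 8.55 to 8.75 at D2PM, and 7.74 and 7.34 in old cells, with 9 genes higher on each day. Old replicate 2 had the lowest level of both lists, as it had for Fos, Fosb, Jun, Junb, Jund and Atf3. For the Schwann cell and tendon list (6 of 8 tested, Fmod the brightest) these levels were 6.49 to 7.23, 6.88 to 6.99, and 6.25 and 5.82 in the same order of groups, with 3 genes higher on each day. Markers of fibroadipogenic progenitors (7 of 10 tested, Dpt the brightest) lay at 7.53 to 8.04 at D4PM, 8.18 to 8.30 at D2PM, and 8.01 and 7.39 in old cells, with 0 changed at D4PM and 1 higher at D2PM. Few immune markers passed the filter. The macrophage and monocyte list (5 of 12 tested, Cd68 the brightest, with Ptprc and Csf1r below the filter on mean signal) lay at 5.73 to 6.19, 5.72 to 6.21, and 6.59 and 5.93 in the same order, with 1 gene lower on each day (Cd14). The neutrophil list (3 of 7 tested, S100a9 the brightest) lay at 5.39 to 7.69, 6.92 to 7.41, and 7.36 and 6.27 with 0 genes changed, and 0 of the 8 lymphocyte markers passed the filter. Markers of the labelled cell type were present in all groups. The satellite cell list (12 of 13 tested, Myf5 the brightest) lay at 9.92 to 10.13 at D4PM, 9.99 to 10.07 at D2PM, and 9.93 and 9.86 in old cells, with 3 genes higher and 2 lower at D4PM and 2 higher and 1 lower at D2PM. Those called at D4PM were the surface markers Vcam1 and Itga7 at -0.81 and -0.44, and Heyl, Spry1 and Calcr at 0.79, 0.63 and 0.51. Pax7, Myf5 and Cdh15 did not pass on either day. Their mean levels in D4PM, D2PM and old cells were 10.43, 10.30 and 10.06 for Pax7, 11.33, 11.28 and 11.09 for Myf5, and 8.43, 8.49 and 8.33 for Cdh15. Old replicate 2 was also the lowest array for the Schwann cell and tendon, fibroadipogenic progenitor and satellite cell lists. It was not the lowest for the macrophage and monocyte or the neutrophil list. The part of the other cell types in the differences of the AP-1 genes was not tested.

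**Figure D3:**
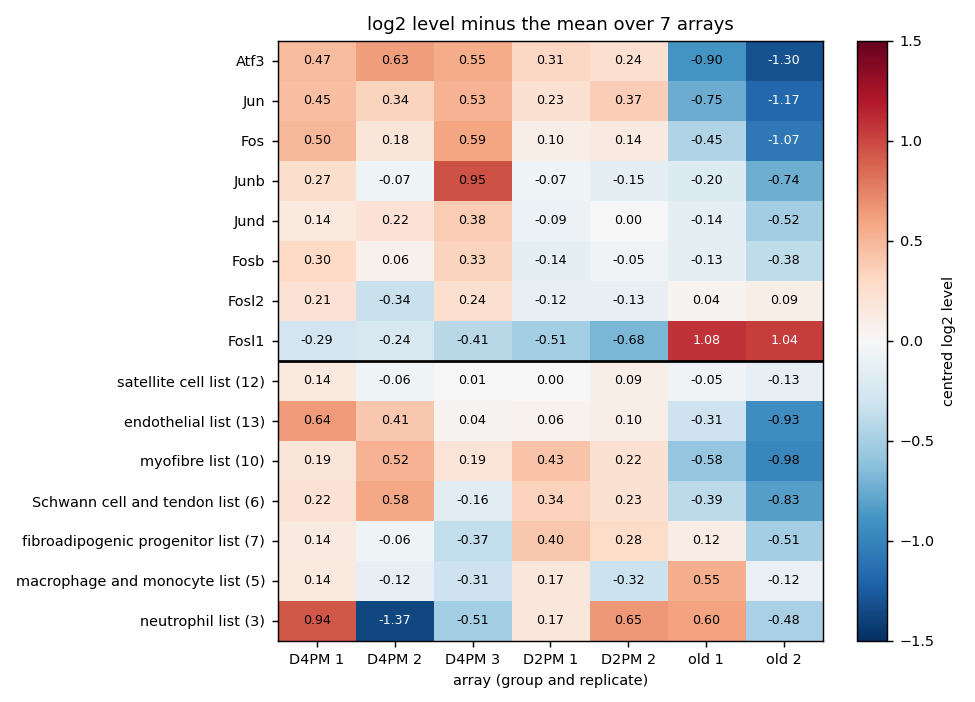
Log2 level minus its mean over the 7 arrays, for the 8 members (above the line) and for the mean of each marker list (below it, number of genes tested in parentheses), with arrays as columns and red for higher levels. Old replicate 2 is lowest for Atf3 (-1.30), Jun (-1.17), Fos (-1.07), the endothelial list (-0.93) and the myofibre list (-0.98). It is also lowest for the Schwann cell and tendon (-0.83), fibroadipogenic progenitor (-0.51) and satellite cell (-0.13) lists. Fosl1 is high on both old arrays (1.08 and 1.04).

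Genes with the most similar pattern were found by the root-mean-square difference between log2 levels centred over the 7 arrays. Nearest to Fos were Nr4a1 (0.09), an orphan nuclear receptor gene of the immediate early class, and Btg2 (0.11), an antiproliferative immediate early gene. Jun was nearest to Ier2 (0.07), another immediate early gene, and to Mgarp (0.08). Atf3 was nearest to Ckm (0.08), the muscle creatine kinase gene of mature fibres, and to Ier2 (0.12). The genes nearest to Fosl1 were Rnf125 (0.10), at 6.64 in D4PM, 6.43 in D2PM and 8.03 in old cells, and Lox (0.17), the lysyl oxidase of collagen crosslinking, at 6.09, 6.13 and 7.75. Fosb was nearest to Zfp36l2 and Ptger4 (0.04 and 0.05), Fosl2 to Itpr2 and Nop53 (0.06 and 0.07), Junb to Cybrd1 and Id3 (0.16 each), and Jund to Bcl9l and Hoxa4 (0.06 and 0.07). Within the family, Jun and Atf3 were closest to each other (0.14) after Fosb and Jund (0.11), and Atf3 and Fosl1 were farthest apart (1.37).

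Among the other genes of the pathway, no list had a gene that passed between D4PM and D2PM, and each list was set against old cells on both days. Over all genes tested, 12.4% were higher and 15.5% lower at D4PM, and 10.3% were higher and 9.11% lower at D2PM, and no list was tested against them. The kinases and factors upstream of AP-1 had called genes in both directions. Of 24 listed, 19 were tested, of which 1 was higher and 5 were lower at D4PM, and 1 was higher and 3 were lower at D2PM, with median differences of -0.19 and -0.15. Map2k3, a p38-activating kinase, fell by 2.05 at D4PM and by 1.75 at D2PM (limma adjusted p = 1.80e-06 and 3.04e-05). Rps6ka3, the ERK-dependent kinase RSK2, fell by 1.73 and by 1.62 on these days (limma adjusted p = 3.27e-05 and 2.18e-04). Map2k6, another p38 activator, was higher by 0.85 and 0.80. Srf itself differed by 0.34 at D4PM and 0.44 at D2PM, and neither passed (limma adjusted p = 0.104 and 0.0744).

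The list of MAP kinase phosphatases and feedback inhibitors divided into both directions. It also holds Zfp36, Zfp36l1 and Zfp36l2, which are not MAP kinase phosphatases. Of these, Zfp36l2 alone was among the genes counted as higher at D4PM (0.44, limma adjusted p = 0.0414). Of 17 listed, 16 were tested, of which 10 were higher and 3 lower at D4PM, and 4 were higher and 3 lower at D2PM, with median differences of 0.59 and 0.34. Dusp6, the phosphatase of ERK, was higher by 1.23 at D4PM and 1.20 at D2PM (limma adjusted p = 0.00901 and 0.0222), and Dusp1, a phosphatase of p38 and JNK that is itself an immediate early gene, by 0.71 and 0.57 (limma adjusted p = 0.00538 and 0.0328). The inhibitors of receptor tyrosine kinase signalling differed among themselves. Spry4 was higher by 0.81 at D4PM and 0.82 at D2PM, while Spry2 fell by 1.41 and by 1.37 and Spred1 by 1.36 and by 1.13. Spry1, which is known to be needed for the return of satellite cells to quiescence, was higher by 0.63 at D4PM (limma adjusted p = 0.0124) and differed by 0.52 at D2PM (limma adjusted p = 0.0585).

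Other immediate early genes were mostly higher or did not pass. Of 30 listed, 29 were tested, of which 12 were higher and 2 lower at D4PM, and 10 were higher and 2 lower at D2PM, with median differences of 0.40 and 0.23. Ccn1, a matricellular protein gene, was higher by 1.98 at D4PM and 1.94 at D2PM (limma adjusted p = 7.60e-06 and 4.66e-05), and Ier2 by 1.40 and 1.25 (limma adjusted p = 1.58e-04 and 9.82e-04). Nr4a1 was higher by 1.10 and 0.89, and Btg2 by 0.97 and 0.70. Egr1, the zinc finger factor induced with Fos through SRF, was higher by 0.47 at D4PM (limma adjusted p = 0.0186) and differed by 0.27 at D2PM (limma adjusted p = 0.209). The genes that were lower on both days were Myc, which fell by 0.57 at D4PM and by 0.54 at D2PM, and Ier5, which fell by 0.94 and by 0.68.

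Genes listed as targets of AP-1 were lower where they passed on either day. Of 24 listed, 14 were tested, of which 0 were higher and 5 lower at D4PM, and 0 were higher and 7 lower at D2PM, with median differences of -0.36 and -0.47. Timp1, an inhibitor of matrix metalloproteinases, fell by 3.46 at D4PM and by 2.71 at D2PM (limma adjusted p = 3.07e-06 and 7.91e-05). Plaur, the urokinase receptor, fell by 1.76 and by 1.46 (limma adjusted p = 3.78e-05 and 4.59e-04). The hyaluronan receptor gene Cd44 fell by 1.40 and by 1.22. Ccnd1, the cyclin of the G1 phase, differed by 0.56 at D4PM and 0.84 at D2PM and passed on neither day (limma adjusted p = 0.122 and 0.0550). With the days averaged Ccnd1 passed as the 1 target that was higher, by 0.70 (limma adjusted p = 0.0427).

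The list of bZIP partners of AP-1 also had called genes in both directions. It was drawn widely and holds bZIP factors, such as Atf6, that are not established partners of Fos or Jun proteins. Of 24 genes listed, 19 were tested, of which 2 were higher and 5 lower at D4PM, and 1 was higher and 6 lower at D2PM, with median differences of -0.26 and -0.25. Atf6, a sensor of endoplasmic reticulum stress, fell by 0.85 at D4PM and by 0.66 at D2PM, and Ddit3, the stress factor CHOP, was higher by 0.56 and 0.75 (limma adjusted p = 0.0424 and 0.0253). Of 13 genes listed for the turnover or redox control of AP-1 proteins, 12 were tested and 1 was lower on each day. This was Apex1, a DNA repair enzyme on the list for its chemical (redox) reduction of AP-1 proteins and not for turnover. It fell by 0.79 at D4PM and by 0.57 at D2PM (limma adjusted p = 0.00240 and 0.0289).

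**Figure D4:**
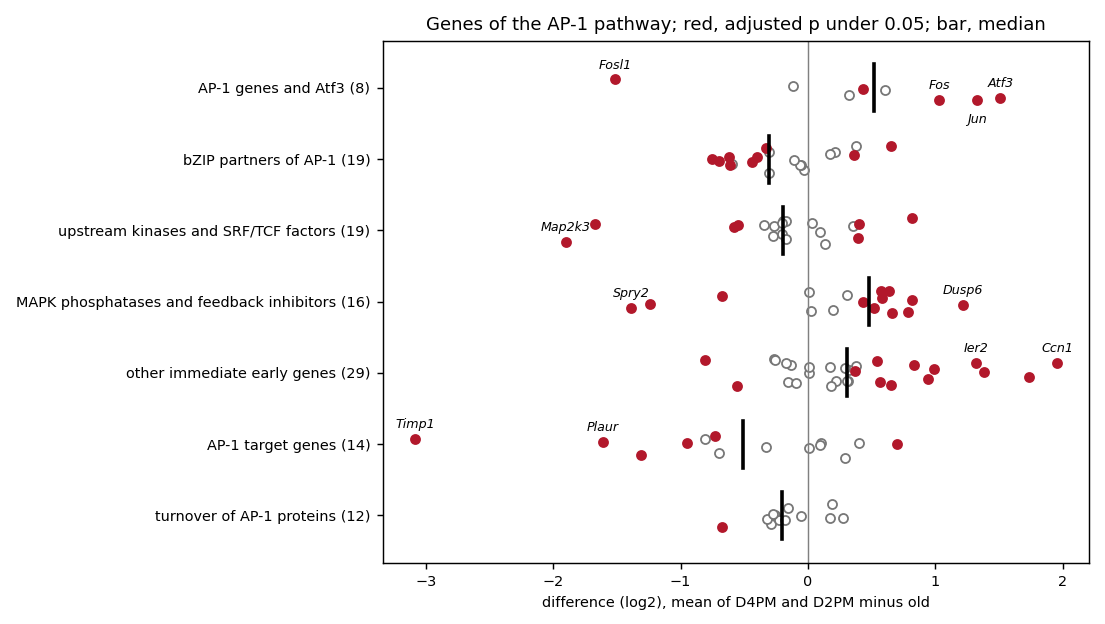
Fitted log2 difference of the post-mortem mean (D4PM and D2PM averaged) minus old cells, with 1 point per tested gene, for the 8 members and for each pathway list (number tested in parentheses); red points have an adjusted p under 0.05 (limma), open points do not, and the black bar is the median of the list. The median is 0.52 for the members and -0.51 for the AP-1 target list, where Timp1 is the lowest point at -3.08.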

How the data were processed

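RNA of sorted satellite cells was amplified and then run on Affymetrix Mouse Gene 1.0 ST arrays. The authors deposited log2 values per probe set, normalised over all arrays by RMA, with RMA and limma named in the submitters' processing notes. Arrays have no read depth, so their number limits the precision. From these values, each gene was represented by the brightest probe set annotated to it alone, and genes with a mean log2 level below 5.12 (the 25th percentile) were left out. The 3 group means were fitted with limma 3.58.1 in R 4.3.3, and p-values were Benjamini-Hochberg adjusted over the 9944 genes with a threshold of 0.05. The fit was tested on simulated data. Members, gene lists and tests were chosen with earlier results of these data known. Named beside the members were some of the anchor genes set for the lists and some genes called on both days. The 2 genes of nearest profile per member and the brightest marker of each cell type list were also named. Anchors tested but not described above were Atf4, Creb1, Maff, Crem, Elk1, Mapk8, Zfp36, Hmox1, Fbxw7 and Itch, none of which passed at D4PM. Another was Mafk, which was higher at D4PM. Klf2, Id1 and Rhob, also higher at D4PM, are not described above either. The genes named therefore do not stand for their lists. Cd14 and the satellite cell markers called at D4PM were named after their values were seen. Alternatives were other filters, probe set rules, normalisations, priors, array weights, a replicate block, a plain t-test and leaving out each array.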

Additional observations from a re-analysis of the deposited data

How the results depend on the processing

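With 2 or 3 arrays a group, single arrays set the counts of genes called by limma. Leaving out 1 array gave 911 to 2512 genes between D4PM and old cells (2770 with all arrays), 323 to 2054 between D2PM and old cells (1931), 858 to 2814 between the post-mortem mean and old cells (2887), and 0 to 21 between D4PM and D2PM (19). The lowest counts came without old replicate 2 (911 and 858), without D2PM replicate 1 (323, with 346 without old replicate 2) and without either D2PM array (0). Between the days, every omission but that of D4PM replicate 3 left at most 3 genes. The plain t-test with the same adjustment called 14, 15, 1719 and 0 genes in these comparisons, with 692 at an unadjusted p under 0.05 in the last. It called 0, 0 and 4 members in the first 3. For the post-mortem mean it pooled the arrays of both days, so that each array and not each day had equal weight. The difference of Fos was 1.06 there, against 1.03 in the limma fit. Between D4PM and D2PM, a filter on interquartile range gave 2 genes, a fit of only the arrays compared gave 2, and the replicate block gave 54. Deviations from the group means correlated at -0.08 to 0.05 between arrays of equal number. In a group of 2 arrays these deviations mirror each other, so the correlations cannot decide whether the numbers pair the arrays. The block leaves D4PM replicate 3, which has no partner, out of the estimates. Under it Fosb did not pass at D4PM nor Jund for the post-mortem mean (limma adjusted p = 0.0641 and 0.0539), as without that array alone, and Junb passed for the mean (limma adjusted p = 0.0225, against 0.0627 without that array). With a trended and robust variance prior Junb lost its call at D4PM and Fosb gained one for the mean, and Jund lost its call for the mean after median centring (limma adjusted p = 0.0740, 0.0421 and 0.0599). Atf3, Jun and Fosl1 kept their calls against old cells on each day under all alternatives but the plain t-test. The difference of Fosl2 between D4PM and old cells changed sign, with no call, to 0.0876 after a second quantile normalisation, to 0.0230 with array weights and, leaving out 1 array, lay between -0.1307 (without D4PM replicate 3) and 0.1550 (without D4PM replicate 2). The causes were not tested.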
